A study of Mus musculus with 18 samples.

Results

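The genes that build cholesterol and fatty acids, together with the genes that control and drain these pathways, were examined in mouse bone marrow–derived dendritic cells (DCs) held in collagen gels or in suspension. The 36 genes were taken by name from the SREBP and LXR pathways, out of 29875 genes in the count table. They fall into 6 groups by role: 7 genes of the mevalonate steps, 11 of the sterol steps, 5 of SREBP control, 5 of fatty acid synthesis, 5 LXR receptors and targets, and 3 of sterol storage and transport. All 36 passed the filter on low counts, as did 13844 genes in all.

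Cells make cholesterol from acetyl-CoA, first through mevalonate to farnesyl diphosphate and then through squalene and lanosterol. SREBP transcription factors, encoded by Srebf1 and Srebf2, drive the genes of these steps and of fatty acid synthesis. They are held in the endoplasmic reticulum by Insig proteins when sterols are plentiful and are carried to the Golgi by the escort protein Scap when sterols fall. LXR receptors sense oxysterols and, for cholesterol, act in the other direction, by raising its export and lowering its uptake. In myeloid cells, both arms are known to respond to inflammatory stimuli such as lipopolysaccharide (LPS).

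The DCs were grown with GM-CSF from bone marrow of C57Bl6/J wild-type mice 8 to 12 weeks old and were matured with LPS at 200 ng/ml for 24 hours from day 8 of culture, so every group had received LPS. For the gels, the study's methods give RNA taken 5 hours after a gradient of the chemokine CCL19 was set up. The 4 collagen groups held cells in bovine collagen at 1.7, 2.6, 3.5, or 4.4 mg/ml, and the 2 suspension groups held cells in the same chambers without collagen, 1 titled with and 1 titled without CCL19. Each group had 3 libraries, numbered as biological replicates 1 to 3, for 12 collagen and 6 suspension libraries. For the suspension groups, the titles and the library names contradict each other on CCL19, so the groups are named by title, were pooled as controls and support no statement on what CCL19 does.

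The libraries held 13062944 to 28059839 counts, and 3 counts correspond to 0.107 to 0.230 CPM, counts scaled to a common library size. All 10 DC markers checked were present, with a summed level of 18360 to 55160 CPM in suspension and 24960 to 59890 CPM in collagen. The study's methods name male mice, but Xist was at 29.3 to 229 CPM in replicates 1 and 2 (12 libraries) and at 0 in replicate 3 (6 libraries), which alone held Y-linked counts above 2. Every group has 1 library of each replicate number, so this difference does not fall between the groups. The 8 eosinophil markers checked summed to 117 to 1339 CPM in suspension and 14.0 to 168 CPM in collagen, and the 8 neutrophil markers to 631 to 9742 and 1044 to 5164 CPM. The part of such cells in the differences below was not tested.

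SREBP acts at the promoters of the genes it drives, and the 36 genes also hold LXR receptors and targets. Of the 36 genes, 28 had at least 1 RefSeq promoter window (GRCm38.p6, from 250 bases before to 50 bases after the start), 37 windows in all. The SREBP site core was searched on both strands as TCACNCCA and was found in 3 of the 37 windows (8.11%, against 4.36% of 32851 windows of all genes), those of Msmo1, Hmgcs1, and Srebf2. These stretches are shown because they place the letters of the core in a sterol step, a mevalonate step, and a gene of the factor itself, and the core is in capitals.
Msmo1, chr8:64733708-64733795, minus strand: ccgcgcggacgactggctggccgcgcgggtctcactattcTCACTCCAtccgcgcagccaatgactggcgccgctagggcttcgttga
Hmgcs1, chr13:119690174-119690261, plus strand: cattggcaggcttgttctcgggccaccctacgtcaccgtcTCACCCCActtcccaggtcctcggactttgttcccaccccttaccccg
Srebf2, chr15:82147067-82147154, plus strand: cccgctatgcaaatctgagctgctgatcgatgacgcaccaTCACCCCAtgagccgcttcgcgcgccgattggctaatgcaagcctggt

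The core lies at -177, -137, and -162 bases from the RefSeq start of Msmo1, Hmgcs1, and Srebf2. Those of Hmgcs1 and Srebf2 lie before the gene in the GENCODE annotation, and that of Msmo1 lies inside its outer bounds, which reach base 64733792. A looser form of the site, TCACNNCA, of which the core is a part, was found in 11 of the 37 windows (29.7%, against 13.8% of all windows). The NF-Y box CCAAT was found in 22 (59.5%, against 37.4%), and the Sp1 box GGGCGG in 26 (70.3%, against 35.7%). A match is only a run of letters in this window and shows no binding.

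Collagen against suspension asks whether DCs in a matrix differ from DCs in the same chamber without one. Of the 36 genes, 6 were lower in collagen and none higher: Mvk, Lss, Nsdhl, Dhcr7, Scap, and Acaca (edgeR quasi-likelihood test, called at a false discovery rate of 0.1). This is 16.7% of the 36 genes, against 20.2% of all genes tested, of which 12.4% were lower. The share called in either direction was thus below that of all genes, and the share called lower was above it, a difference that was not tested. The median log2 difference was -0.25 for the 36 genes and 0.00 (0.002693) for all genes, and 22 of the 36 were below 0, against 49.8% of all genes. At an unadjusted p under 0.05, 8 of the 36 genes passed, against 27.9% of all genes. Because bulk RNA was measured, fewer cells of a type and less RNA per cell cannot be told apart.

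A replicate number stands for a date that 1 library of every group shares, so the comparison was also made within replicates, with the number as a block. Then 12 of the 36 genes were called (33.3%, against 34.8% of all genes). Insig1 was higher, and 11 genes were lower: the previous 6 with Fdft1, Hsd17b7, Srebf1, Fasn, and Scd2 (30.6%, against 19.3% of all genes). With offsets for GC content and length in the same fit, 12 were again called (37.7% of all genes), but 4 were higher (Insig1, Nr1h2, Mylip, and Stard4) and 8 lower (22.2%, against 19.0% of all genes). Srebf1, Fasn, and Fdft1 were not called then, so the split into higher and lower genes moved with this correction.

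**Figure D1:**
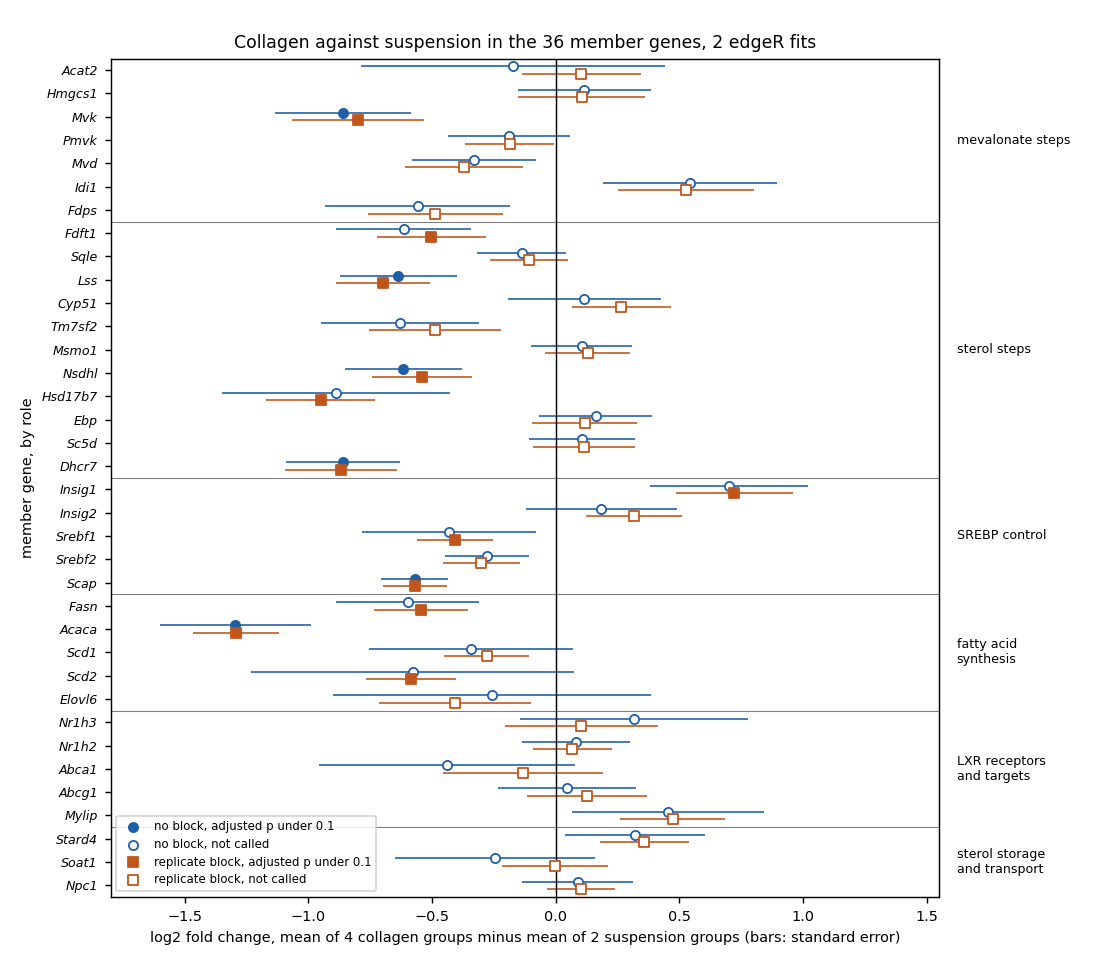
Log2 difference between the 12 collagen and the 6 suspension libraries for the 36 genes, ordered by role, with standard errors, without the block (circles) and with the replicate block (squares), filled where called. Acaca lies lowest at -1.30, and the genes of LXR and of sterol storage lie around 0.

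The suspension library titled without CCL19, replicate 3, stood apart for these genes. It held the highest level of 16 of the 36 genes (44.4%), against 7.27% of all genes tested. The 16 are 4 of the 7 genes of the mevalonate steps (Acat2, Mvk, Mvd, and Fdps), 9 of the 11 sterol genes (all but Ebp and Sc5d), Srebf2, Fasn, and Acaca. Without this library, Scap and Acaca were the 2 genes still called in collagen against suspension (14.7% of all genes tested). In the fit with the block, 7 were called without it (29.7% of all genes): Insig1 was higher, and Lss, Hsd17b7, Dhcr7, Scap, Acaca, and Scd2 were lower. The share called lower was then 5.56% without the block, against 9.45% of all genes, and 16.7% with it, against 16.8%, so it was no longer above that of all genes. The cause of its high levels was not tested.

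**Figure D2:**
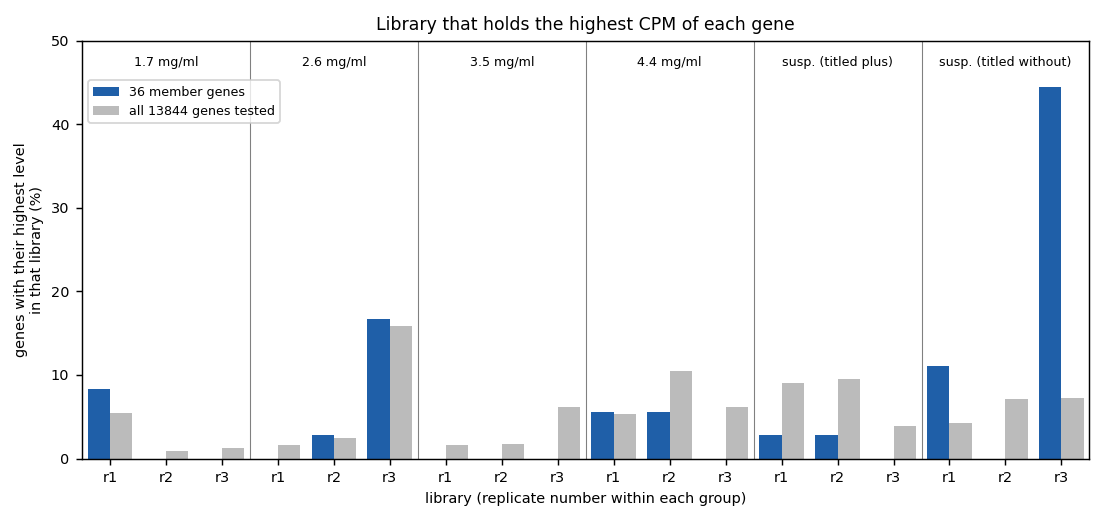
Percent of genes whose highest CPM among the 18 libraries lies in a given library, for the 36 genes (blue) and for all 13844 genes tested (grey). The suspension library titled without CCL19, replicate 3, holds 44.4% of the 36 genes and 7.27% of all genes.

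A collagen library, 2.6 mg/ml replicate 3, stood apart at the low end. It held the lowest level of 10 of the 36 genes (27.8%, against 12.3% of all genes): Mvk, Pmvk, Mvd, Tm7sf2, Nsdhl, Ebp, Dhcr7, Scap, Nr1h3, and Nr1h2. It also held the highest level of 6 (16.7%, against 15.9% of all genes), and it had 22294 genes with counts, more than the 15845 to 20922 of the other libraries. Without it, 4 genes were called in collagen against suspension (Mvk, Dhcr7, Scap, and Acaca; 18.8% of all genes), and 11 with the block (36.5%).

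Among the mevalonate steps, Mvk (mevalonate kinase) was lower in collagen and Idi1 (isopentenyl diphosphate isomerase) was the next by adjusted p. Mvk was at 10.3, 24.1, and 45.2 CPM (lowest, median, highest) in the 12 collagen libraries and at 21.6, 40.2, and 84.97 CPM in the 6 suspension libraries. The log2 difference was -0.86 ± 0.28 (SE, edgeR adjusted p = 0.0488). Mvk was called in 10 of 13 settings of collagen against suspension. An exact permutation test, two-sided and over all 18564 arrangements of the libraries, gave p = 0.0324. Here and below, it tested the difference in mean log2 CPM, -0.71 for Mvk, and not the edgeR difference. It ignored the shared replicate numbers, was not adjusted, and was run on genes picked by their edgeR p in this same comparison. The ranges overlapped, and by replicate the difference was 0.17, -0.69, and -1.61, so replicate 1 went the other way.

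Idi1 was at 1.28, 3.13, and 6.80 CPM in collagen and at 0.664, 2.12, and 4.78 CPM in suspension. Its log2 difference of 0.54 was not called (edgeR adjusted p = 0.339; exact permutation p = 0.275), although collagen was above suspension in 3 of 3 replicates. The other genes of these steps were not called, with or without the block. Over the 18 libraries, Hmgcs1 (HMG-CoA synthase) ranged from 16.8 to 78.3 CPM, Pmvk (phosphomevalonate kinase) from 84.2 to 290.5 CPM, Mvd (the decarboxylase that follows it) from 39.6 to 192 CPM, and Fdps (farnesyl diphosphate synthase) from 2.25 to 13.9 CPM.

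Among the sterol steps, Dhcr7, Lss, and Nsdhl were lower in collagen, and the median log2 difference of the 11 genes was -0.61. Of 13 settings of this comparison, Dhcr7 was called in 10, Lss in 6, and Nsdhl in 5. DESeq2 without the block called Dhcr7 and Lss and not Nsdhl. Dhcr7, the reductase of the last step to cholesterol, was at 5.36, 9.22, and 12.3 CPM in collagen and at 10.4, 13.8, and 30.8 CPM in suspension. The difference was -0.86 ± 0.23 (edgeR adjusted p = 0.0211; exact permutation p = 0.000323). The ranges overlapped only between 10.4 and 12.3 CPM, and collagen was lower in 3 of 3 replicates.

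Lss, which closes squalene epoxide into lanosterol, was at 6.999, 12.1, and 21.4 CPM in collagen and at 13.1, 18.1, and 37.0 CPM in suspension. The log2 difference was -0.64 ± 0.24 (edgeR adjusted p = 0.0836; exact permutation p = 0.0206), and it was negative in 3 of 3 replicates. The highest suspension library was again the one titled without CCL19, replicate 3, and without it Lss was not called unless the block was used. Nsdhl, a dehydrogenase that takes part in removing methyl groups from sterols, differed by -0.62 ± 0.23 (edgeR adjusted p = 0.0933), with collagen lower in 2 of 3 replicates.

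Hsd17b7, a reductase of the same demethylation steps that is discussed because of its values, had the sterol group's lowest log2 difference, -0.89. It was not called without the block (edgeR adjusted p = 0.221) and was called with it at -0.95 (adjusted p = 0.00416). Its levels moved with the replicate: they were 0.961 to 6.07 CPM in replicate 1, 5.79 to 14.7 CPM in replicate 2, and 5.04 to 25.2 CPM in replicate 3, and collagen was below suspension by 1.21, 0.33, and 1.31 on the log2 scale in the 3 replicates. Fdft1 (squalene synthase) was called only with the block, at -0.50 (edgeR adjusted p = 0.0994), and 26.5% of its 50-base stretches are shared with other genes, mainly with Ctsb on the opposite strand, which has up to 83454 counts. Whether counting used strand is not given in the sources used here, so the Fdft1 value is uncertain.

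The other sterol genes were not called in either fit. Sqle (squalene epoxidase) ranged from 35.2 to 98.3 CPM, Cyp51 (lanosterol demethylase) from 14.5 to 103 CPM, Tm7sf2 (a sterol reductase) from 6.49 to 36.2 CPM, Msmo1 (methylsterol oxidase) from 32.4 to 94.2 CPM, Ebp (sterol isomerase) from 36.03 to 125 CPM, and Sc5d (sterol desaturase) from 7.68 to 21.5 CPM. Ebp had the group's highest log2 difference, 0.16.

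In SREBP control, the escort Scap was lower in collagen, while Insig1, which retains it, was higher only when replicates were compared within themselves. Scap was at 31.5, 34.1, and 45.7 CPM in collagen and at 41.3, 57.7, and 63.4 CPM in suspension. The difference was -0.57 ± 0.14 (edgeR adjusted p = 0.0120; exact permutation p = 0.000323). Scap was called in 9 of 13 settings of collagen against suspension. Of the variance of its log2 CPM, 79.5% lay between groups and 5.26% between replicates. The 2 suspension groups were not alike in level: the libraries titled with CCL19 were at 54.4, 63.4, and 62.8 CPM and those titled without at 41.3, 43.3, and 60.9 CPM. Only the latter group overlapped the collagen range.

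Insig1 was at 8.54, 17.50, and 39.8 CPM in collagen and at 5.64, 11.7, and 23.5 CPM in suspension. The log2 difference was 0.70 ± 0.32 without the block (edgeR adjusted p = 0.162; exact permutation p = 0.0602) and 0.72 with it (adjusted p = 0.0305), and collagen was above suspension in 3 of 3 replicates. Srebf1, which encodes SREBP-1, was called lower only with the block, at -0.41 (edgeR adjusted p = 0.0566), and not after the GC and length correction. Its levels were 69.3 to 180 CPM in replicate 1, 49.4 to 80.8 CPM in replicate 2, and 25.99 to 52.4 CPM in replicate 3. Srebf2, which encodes SREBP-2, ranged from 215 to 483 CPM and Insig2 from 7.22 to 26.5 CPM, and neither was called.

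In fatty acid synthesis, Acaca (acetyl-CoA carboxylase, which makes malonyl-CoA and commits acetyl-CoA to fatty acids) had the largest difference of the 36 genes. It was at 2.06, 5.46, and 8.53 CPM in collagen and at 5.16, 10.35, and 24.9 CPM in suspension. The log2 difference was -1.30 ± 0.31, or 0.408 times the suspension level (edgeR adjusted p = 0.0110; exact permutation p = 0.00172), and -1.29 with the block (adjusted p = 7.0e-05). The ranges overlapped because replicate 1 was low throughout, and within replicates collagen was below suspension by 1.27, 1.08, and 1.51 on the log2 scale. Acaca was also the 1 gene called for any difference among the 6 groups (4.9% of all genes).

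It was called in 11 of 13 settings of collagen against suspension, and not without replicate 2 or without replicate 3, where its log2 difference was still negative. Of its 50-base stretches, 30.4% are shared with other genes, mainly Gm5182, which had at most 7 counts. The study's methods name RSEM for TPM values, and how such reads entered the deposited counts is not given in the sources used here.

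Fasn, the synthase that builds palmitate from malonyl-CoA, was at 46.7, 68.3, and 151 CPM in collagen and at 49.8, 116, and 224 CPM in suspension. Its log2 difference of -0.60 was not called without the block (edgeR adjusted p = 0.190; exact permutation p = 0.105) and was called at -0.55 with it (adjusted p = 0.0419), although not after the GC and length correction. The desaturases Scd1 and Scd2 introduce a double bond into saturated fatty acids. Scd2 differed by -0.58 in both fits and was called with the block (edgeR adjusted p = 0.0236 against 0.613 without it). Scd1 was not called (7.65 to 66.7 CPM), and neither was the elongase Elovl6 (0.343 to 7.09 CPM).

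**Figure D3:**
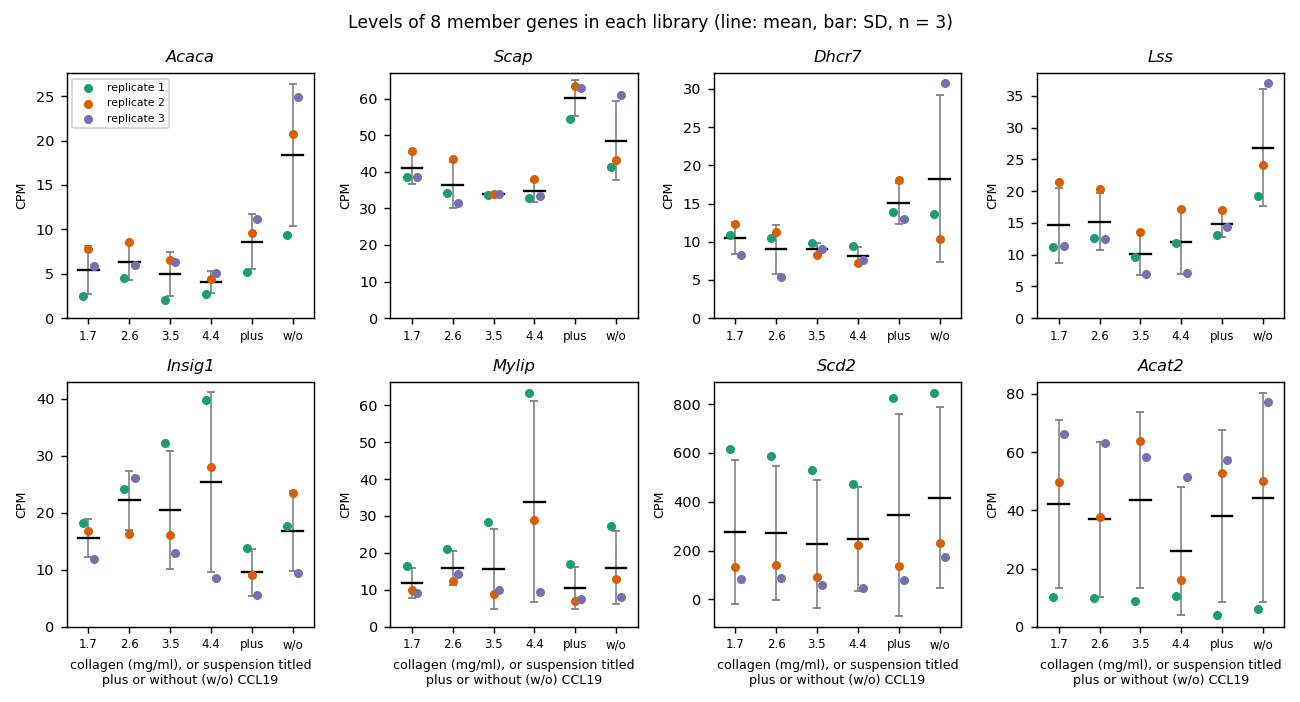
CPM of 8 of the genes in each library by group, with the mean and SD of 3 libraries and replicates in separate colors. Scap and Acaca lie lower in the 4 collagen groups, Mylip is highest in a 4.4 mg/ml library at 63.4 CPM, and Scd2 and Acat2 separate by replicate.

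None of the 5 LXR receptors and targets was called in collagen against suspension by edgeR without the block or with the block alone. At an unadjusted p under 0.05, none passed without the block and Mylip alone with it. With GC and length offsets added to the block, Nr1h2 and Mylip were called higher, and DESeq2 with the block called Mylip higher. The median log2 difference of the 5 genes was 0.08 without the block. Mylip, a ubiquitin ligase that LXR induces and that lowers lipoprotein uptake, was at 8.78, 13.3, and 63.4 CPM in collagen and at 7.01, 10.5, and 27.2 CPM in suspension. The log2 difference was 0.45 (edgeR adjusted p = 0.490; exact permutation p = 0.328), and collagen was higher in 3 of 3 replicates. Abca1, which exports cholesterol to lipid-poor apolipoproteins, was at 20.2, 58.0, and 126 CPM in collagen and at 12.7, 75.1, and 198 CPM in suspension. Its ranges overlapped almost throughout (log2 difference -0.44, edgeR adjusted p = 0.630). The difference in mean log2 CPM was 0.0053 (exact permutation p = 0.993), and by replicate it was -0.75, -0.65, and 1.42. The exporter Abcg1 ranged from 71.0 to 284 CPM, and the receptor genes Nr1h3 (LXRα) and Nr1h2 (LXRβ) ranged from 1.44 to 19.7 and from 118 to 341 CPM.

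None of the 3 genes of sterol storage and transport was called in collagen against suspension by edgeR without the block or with the block alone. None passed an unadjusted p of 0.05 in either of these fits. Stard4 was called higher with GC and length offsets added to the block, and by DESeq2 with the block. Stard4, a carrier of sterols between membranes, was at 19.0, 30.2, and 58.2 CPM in collagen and at 9.86, 23.5, and 50.7 CPM in suspension (log2 difference 0.32; edgeR adjusted p = 0.502; exact permutation p = 0.307). Soat1, which esterifies cholesterol for storage, was at 32.5, 70.8, and 130.5 CPM in collagen and at 26.9, 64.5, and 177 CPM in suspension (log2 difference -0.25, edgeR adjusted p = 0.741). Its difference in mean log2 CPM was 0.015 (exact permutation p = 0.972). Npc1, which passes cholesterol out of lysosomes, ranged from 49.3 to 135 CPM. For all 3 genes, the collagen and suspension ranges overlapped broadly.

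The 4 densities were each set against the same 6 suspension libraries, so these 4 comparisons share their controls. At 1.7 mg/ml, none of the 36 genes was called (edgeR; 0.0361% of all genes; 1 gene at an unadjusted p under 0.05, against 8.04% of all genes; none by DESeq2). At 2.6 mg/ml, Mvk was called (7.87% of all genes), at 3.5 mg/ml Scap was called (4.9%), and at 4.4 mg/ml Dhcr7, Scap, and Acaca were called (14.8%). All were lower in collagen. At 4.4 mg/ml, the log2 differences were -1.63 ± 0.48 for Acaca (edgeR adjusted p = 0.0450), -1.03 ± 0.35 for Dhcr7 (adjusted p = 0.0750), and -0.64 ± 0.20 for Scap (adjusted p = 0.0583).

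With the block, 1 gene was called at 1.7 mg/ml (Acaca, lower; 2.91% of all genes) and 8 at 2.6 mg/ml (21.6%): Insig1 and Stard4 were higher, and Mvk, Nsdhl, Hsd17b7, Dhcr7, Scap, and Acaca were lower. Without replicate 3 of that density, the library that stood apart at the low end, 0 of the 36 were called, and the share of all genes also fell, to 7.38%. The 8 genes kept their direction in that fit, and the log2 difference moved from -1.21 to -0.74 for Mvk, from 0.96 to 0.39 for Insig1, and from -0.92 to -0.96 for Hsd17b7. At 3.5 mg/ml, 8 were called (18.4%): Idi1 was higher, and Lss, Hsd17b7, Dhcr7, Srebf1, Scap, Acaca, and Scd2 were lower. At 4.4 mg/ml, 11 were called (31.9%): Insig1 and Mylip were higher, and Fdps, Fdft1, Lss, Hsd17b7, Dhcr7, Scap, Fasn, Acaca, and Scd1 were lower. After the GC and length correction at 4.4 mg/ml, 5 were higher and 4 lower (35.6% of all genes were called). Insig1, Nr1h3, Nr1h2, Mylip, and Npc1 were higher, and Hsd17b7, Dhcr7, Acaca, and Scd1 were lower. Scap was not called then. In the fit with the block, 9 of the 36 genes were called for any difference among the 6 groups (24.3% of all genes).

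**Figure D4:**
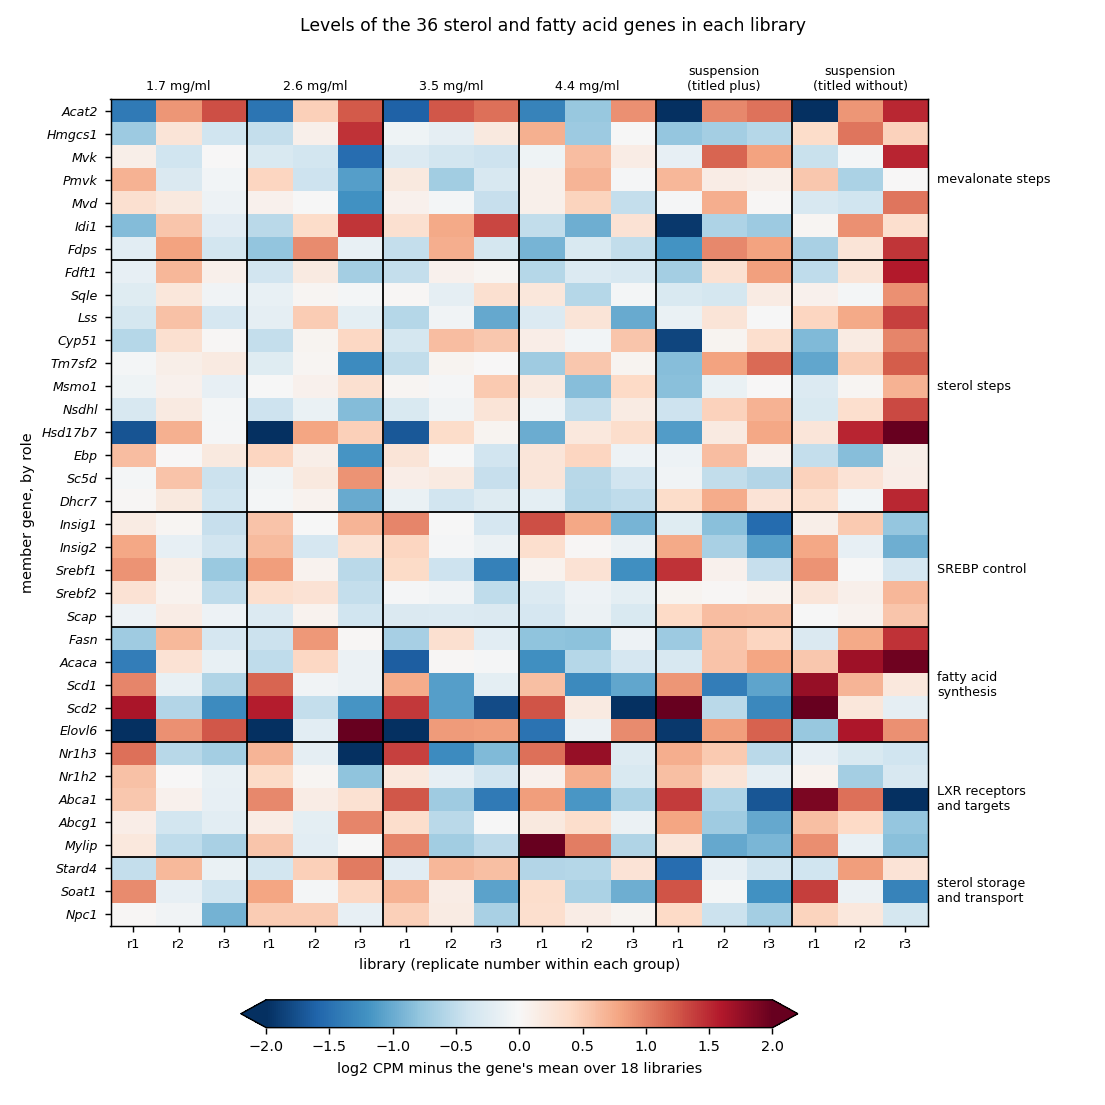
Log2 CPM of the 36 genes in the 18 libraries, relative to each gene's mean and ordered by role. The suspension library titled without CCL19, replicate 3, is high for most sterol genes, and replicate 1 stands apart from replicates 2 and 3 for Scd2, Acat2, and Elovl6.

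Between the densities themselves, which ask how the cells adapt to a more complex matrix, the linear trend over the 4 densities called none of the 36 genes (edgeR; 0.00722% of all genes without the block and 1.45% with it). At an unadjusted p under 0.05, 1 gene passed without the block, against 7.2% of all genes, and 2 with it, against 14.0%, and DESeq2 without the block called 0. Of the 36 genes, 4.4 mg/ml against 1.7 mg/ml called none without the block (0.00722% of all genes; 1 at an unadjusted p under 0.05, against 7.66% of all genes; none by DESeq2) and Mylip with it (1.73%).

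Mylip was at 16.5, 10.0, and 9.09 CPM in replicates 1 to 3 at 1.7 mg/ml, at 21.01, 12.4, and 14.2 CPM at 2.6 mg/ml, at 28.3, 8.78, and 9.98 CPM at 3.5 mg/ml, and at 63.4, 28.9, and 9.44 CPM at 4.4 mg/ml. Replicates 1 and 2 were thus highest at 4.4 mg/ml, and replicate 3 was not. The log2 difference between 4.4 and 1.7 mg/ml was 1.52 without the block (edgeR adjusted p = 0.562) and 1.29 with it (adjusted p = 0.0962). With the block, 239 of 13844 genes were called in this contrast. When replicate 2 at 4.4 mg/ml was left out, 0 of the 36 genes were called, and 43 of 14368 genes in all. Leaving out replicate 1 or 2 as a whole also gave 0 of the 36, with 15 of 13730 and 0 of 14106 genes called in all. Against suspension, Mylip at 4.4 mg/ml was higher by 1.26 with the block (edgeR adjusted p = 0.00423).

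The choice of suspension group changed which genes were called. Against the group titled with CCL19 alone, Scap was called (13.7% of all genes), and with the block 9 genes were called (27.2%): Idi1, Insig1, Mylip, and Stard4 were higher in collagen, and Mvk, Dhcr7, Srebf1, Scap, and Acaca were lower. Against the group titled without CCL19 alone, Lss, Dhcr7, and Acaca were called (8.41%), and with the block 10 were called, all lower in collagen (23.8%): Fdft1, Lss, Nsdhl, Hsd17b7, Dhcr7, Scap, Fasn, Acaca, Scd1, and Scd2. These comparisons share the 12 collagen libraries. Dhcr7, Scap, and Acaca were in both lists with the block.

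Between the 2 suspension groups themselves, edgeR called none of the 36 genes and none of all genes, without the block (0.0%) or with it (0.0%). At an unadjusted p under 0.05, 3 of the 36 genes passed without the block, against 6.18% of all genes, and 9 with it, against 14.2%. By replicate, 18 of the 36 genes (50.0%) were lower in the library titled with CCL19 in 3 of 3 replicates, against 24.1% of all genes tested, and 3 (Pmvk, Scap, and Nr1h2) were higher in 3 of 3, against 22.3%. The 18 include 4 of the 5 genes of fatty acid synthesis and 6 of the 11 sterol genes.

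Hmgcs1, Scd1, and Hsd17b7 are shown for the size of their differences, seen in the data. Hmgcs1 was at 16.8, 18.02, and 19.5 CPM in the libraries titled with CCL19 and at 37.3, 60.6, and 39.8 CPM in those titled without. The log2 difference by replicate was -1.14, -1.74, and -1.02 for Hmgcs1, -0.86, -2.05, and -1.26 for Scd1, and -1.33, -1.33, and -1.52 for Hsd17b7. DESeq2 with the block called 5 of the 36 genes (2.86% of all genes it tested), all lower in the group titled with CCL19: Scd1 (adjusted p = 0.00658), Hsd17b7 (0.0429), Acaca (0.051), Hmgcs1 (0.0869), and Stard4 (0.0869). In edgeR with the block, the adjusted p of these 5 was 0.323. Without the suspension library titled without CCL19, replicate 3, edgeR with the block called 6 of the 36 genes (16.7%, against 7.02% of all genes): Ebp was higher, and Hmgcs1, Idi1, Scd1, Abca1, and Stard4 were lower.

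**Figure D5:**
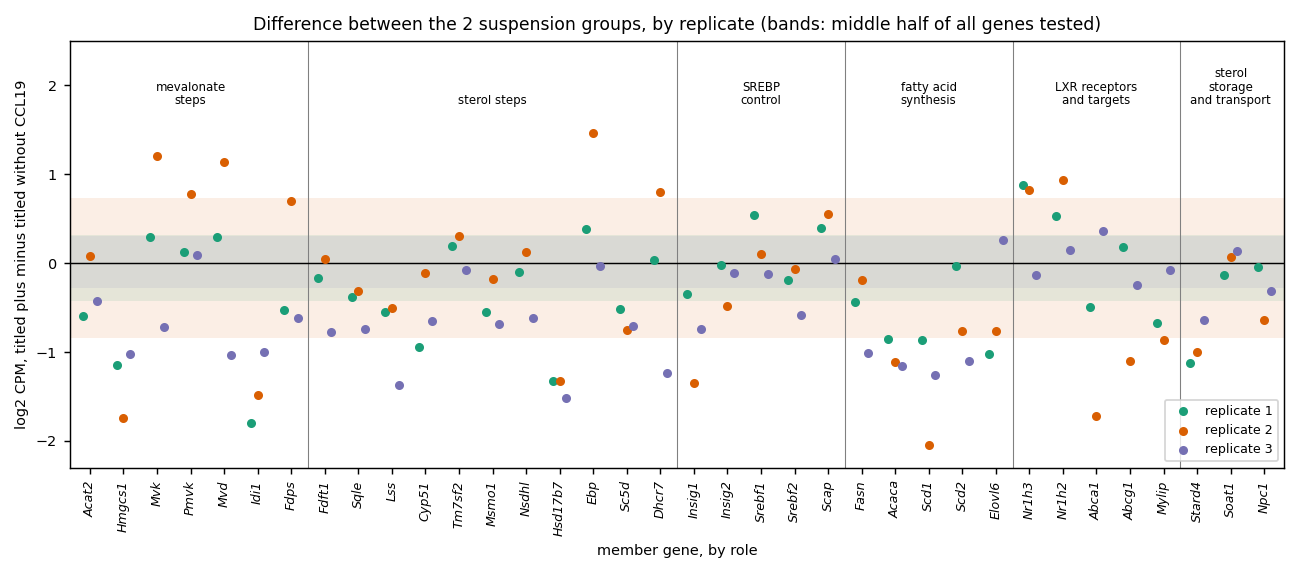
Log2 difference between the suspension libraries titled with and without CCL19 in each replicate for the 36 genes, with bands for the middle range (quartiles) of all genes tested in that replicate. In replicate 3, the median of the 36 genes is -0.63 and that of all genes is 0.00 (-0.003668).

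Differences between replicates were large for some of these genes. The replicate number accounted for a median of 37.3% of the variance of log2 CPM over the 36 genes, against 25.5% over all genes tested, and exceeded the share of the group in 22 of the 36 (61.1%, against 42.0%). Scd2 was at 471 to 845 CPM in the 6 replicate 1 libraries and at 48.1 to 231 CPM in the other 12. Acat2, which joins acetyl-CoA units ahead of the mevalonate steps, went the other way, at 3.94 to 10.7 CPM in replicate 1 and 15.96 to 77.2 CPM in the others.

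Elovl6 was at 0.343 to 1.04 CPM in replicate 1 and at 1.52 to 7.09 CPM in replicates 2 and 3. The replicate accounted for 87.6% of the variance of Scd2, 87.3% of Acat2, and 85.2% of Elovl6, but for 0.858% of Dhcr7. Of the 50-base stretches of Acat2, 39.1% are shared with Acat3, which had at most 113 counts. The replicate numbers also mark dates, the differing leading codes of the library names, and the Xist difference, and these cannot be told apart.

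The genes did not move as 1 block across the 18 libraries. After the replicate mean was subtracted, the median correlation of log2 CPM over the 630 pairs of genes was 0.12, and 371 pairs were positive. It was 0.36 within the sterol steps and 0.46 within fatty acid synthesis. These are descriptions over 18 libraries that share replicates and depth, with no test.

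The 10 pairs with the highest correlations crossed the role groups in part. Idi1 went with Stard4 (r = 0.96), Mvk with Tm7sf2 (0.90) and Mvd (0.90), Fdft1 with Nsdhl (0.87), Dhcr7 (0.86), and Fdps (0.84), Pmvk with Nr1h2 (0.86), Dhcr7 with Nsdhl (0.86) and Scap (0.85), and Hmgcs1 with Sc5d (0.84). Hmgcs1 and Nr1h2 ran opposite (-0.87). Among the 6 genes that were highest in the collagen library 2.6 mg/ml replicate 3, the GC content over exons of Hmgcs1, Idi1, Sc5d, Elovl6, and Stard4 lay at the 6.02 to 26.6 percentile of all genes tested, and that of Abcg1 lay at the 68.45 percentile. Among the 10 that were lowest there, Mvk, Pmvk, Mvd, Tm7sf2, Scap, Nr1h3, and Nr1h2 lay at the 78.8 to 97.9 percentile, while Dhcr7, Ebp, and Nsdhl lay at the 61.3, 43.8, and 23.9 percentile. The part of GC content in these patterns was not tested.

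Per kilobase of exon, as a mean of the 18 libraries, Pmvk was highest at 111 CPM per kb, followed by Nr1h2 (63.6), Scd2 (54.5), Mvd (52.4), and Srebf2 (43.6). Elovl6 (0.401), Acaca (0.466), and Idi1 (0.848) were lowest. The gene with the largest difference between collagen and suspension was thus among the lowest in level.

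The same comparison was made for 46 other genes of the pathways, and all were tested. Without the block, 5 of them were higher in collagen than in suspension and 10 lower (20.2% of all genes were called), and with it 11 were higher and 13 lower (34.8% of all genes). Of the 8 genes of SREBP processing and degradation, 3 were lower without the block and 0 higher, and 12.4% of all genes were lower. The 3 were the proteases Mbtps1 and Mbtps2, which release SREBPs in the Golgi, and Erlin2, which acts with Insig proteins. With the block, 2 of the 8 were higher and 3 lower. Mbtps1 was at a mean of 54.8 CPM in collagen and 99.1 CPM in suspension (log2 difference -0.86 ± 0.16; edgeR adjusted p = 0.00267), and Mbtps2 at 4.38 and 7.69 CPM (-0.83 ± 0.29; adjusted p = 0.0707). The escort Scap and both proteases of SREBP processing were called lower in collagen without the block, as single genes from separate lists and not as a tested set. The median log2 difference of the 8 genes of SREBP processing and degradation was -0.09 in that fit, against 0.00 (0.002693) for all genes.

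Of the 12 genes of sterol uptake, lysosomal release, and oxysterols, 1 was higher and 2 were lower without the block, and 4 were higher and 3 lower with it. For this and the next lists, 20.2% of all genes were called without the block and 34.8% with it. The genes named are those called without the block. Ch25h, which makes an oxysterol, was at a mean of 4.11 CPM in collagen and 0.982 CPM in suspension (2.00 ± 0.46; edgeR adjusted p = 0.00935). Lrp1, a lipoprotein receptor, and Cyp27a1, another oxysterol enzyme, were lower. Of the 6 LXR partners and further targets, Rxra (the partner receptor of LXR) and Lpcat3 (a phospholipid-remodeling target) were lower, by -0.72 and -0.47. With the block, 1 of the 6 was higher and 2 were lower.

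Of the 8 genes of the isoprenoid branch, Ggps1 and Nus1 were higher and Fntb and Dhdds lower, without and with the block. Of the 12 genes of acetyl-CoA supply and fatty acid modification, the acyl-CoA synthetases Acsl1 and Acsl4 were higher, by 0.97 and 0.99, and the desaturase Fads2 was lower, by -1.10. With the block, 2 of the 12 were higher and 3 lower.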

How the data were processed

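RNA of 18 libraries (6 groups of 3) was sequenced from stranded mRNA libraries as single-end 50-base reads. The submitters' processing notes name STAR 2.7.0f and GRCm38. The authors deposited counts, whole numbers per Ensembl gene, and no other values were used here. The study's methods name RSEM for TPM values. Whether the deposited counts came from it, the strand setting, and what was done with reads shared between genes are not given in the sources used here. Of 29875 genes, 29866 were found in the GENCODE annotation, which gave symbols, exon lengths, and GC content.

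Calculations used R 4.3.3 with edgeR 4.0.16 and DESeq2 1.42.0. Genes were filtered with filterByExpr, scaled by TMM, and fitted in 1 quasi-likelihood model over all 18 libraries. P-values were adjusted by Benjamini-Hochberg over all genes tested, and genes were called at a false discovery rate of 0.1. CPM used TMM-scaled library sizes, except that the CPM of 3 counts used total counts. Log2 CPM used a prior count of 2. The CPM of 3 counts covers counting error only, whereas standard errors come from the fitted models and include the spread between libraries. The libraries are labelled as biological replicates, with no statement of separate animals, so p-values measure the spread between these samples. No 2 of the 153 pairs of libraries held identical values. Without the block, the biological coefficient of variation was 49.0%, and it fell to 33.1% within replicates.

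Groups and replicate numbers were taken from the titles. The numbers pair the libraries because the library names give same-numbered libraries a shared date. Deviations from the group means correlated by 0.43 on average over 45 same-numbered pairs (-0.15 to 0.85). The study's methods name DESeq2 and state no block, so the main fit had none, and the fit with the replicate number as a block was the other planned fit.

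The 36 genes, the role groups, and the other pathway and marker lists were chosen with earlier results of these data known, and 1 gene of the pathway lists is not reported here. Values per library are given for the 2 genes with the smallest adjusted p of each role group in collagen against suspension and for any gene called in the density trend or between 4.4 and 1.7 mg/ml, in either fit. Scd2, Acat2, Elovl6, Hsd17b7, Hmgcs1, Scd1, and Nsdhl were added after their values were seen. Alternatives were DESeq2 size factors, DESeq2, no filter on low counts, a false discovery rate of 0.05, the block with GC and length offsets (loess span 0.5), and leaving out each replicate. DESeq2 with the block, each suspension group alone, and leaving out the 2 libraries that stood apart were chosen after seeing the data. The edgeR and DESeq2 fits, each with and without the block, were tested on simulated data with known changes. The other alternatives were not.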

Additional observations from a re-analysis of the deposited data

Results flagged for a closer look

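In the 6 suspension libraries, the library titled without CCL19, replicate 3, lay far above the others for Srebf2 and Sqle. For Srebf2 it was at 483 CPM and the next was at 364 CPM, a gap of 0.701 of the group's whole range. For Sqle it was at 98.3 CPM and the next at 58.6 CPM, a gap of 0.693 of the range. Both exceed Dixon's 95% critical value for a group of this size, which chance alone exceeds in about 1 of 20 groups. These were 2 of the 36 genes examined in this way.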

How the results depend on the processing

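Counts are of the 36 genes called. A number in parentheses is of all genes called in that fit, given for part of the settings. Collagen against suspension gave 6 (2790), 4 with DESeq2 size factors, 5 with DESeq2 (3368), and 7 with no filter on low counts. It gave 12 with the replicate block (4823), 12 with the block and GC and length offsets (5224), and 13 with the block in DESeq2 (5326). It gave 1 against the suspension group titled with CCL19 alone (1892) and 3 against the other alone (1164), or 10 with the block against the latter (3294). Any difference among the groups gave 1 (679), 2 with DESeq2 (1978), 4 with no filter on low counts, and 0 at a false discovery rate of 0.05. The count was 9 with the block (3363), 6 with the block and offsets, and 13 with the block in DESeq2 (5187). At 1.7 mg/ml the count was 0 (5), and 1 with the block (403), 1 with the block and offsets, and 2 with the block in DESeq2 (1096). At 2.6 mg/ml it was 1 (1090), and 0 with DESeq2 size factors, 2 with DESeq2 (1803), and 0 at the stricter rate. It was 8 there with the block (2990), 6 with the block and offsets, and 8 with the block in DESeq2 (3570). At 3.5 mg/ml it was 1 (679), and 0 with DESeq2 size factors, 3 with DESeq2 (1309), 0 with no filter, and 0 at the stricter rate. It was 8 there with the block (2551), 5 with the block and offsets, and 9 with the block in DESeq2 (3141). At 4.4 mg/ml it was 3 (2054), and 1 at the stricter rate. It was 11 there with the block (4420), 9 with the block and offsets (4934), and 11 with the block in DESeq2 (4959). The density trend gave 0 (1), and 1 with the block and offsets and 1 with the block in DESeq2 (839). The contrast of 4.4 with 1.7 mg/ml gave 0 (1), and 1 in each of the 3 fits with the block (239 in edgeR without offsets and 902 in DESeq2). The 2 suspension groups gave 0 against each other (0), and 5 with the block in DESeq2 (258). Where a call came or went, the cause was not tested.

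With 1 replicate or 1 library left out and no block, the counts ran from 0 to 1 for any difference, 0 to 6 for collagen against suspension, 0 to 2 at 2.6 mg/ml, 0 to 1 at 3.5 mg/ml, and 0 to 3 at 4.4 mg/ml. Collagen against suspension fell to 0 without replicate 2 (2790 to 631 of all genes called) and to 0 without replicate 3 (1431). With the block it gave 11, 10, and 4 without replicates 1, 2, and 3 (2690, 3739, and 3487 of all genes called). The log2 difference between collagen and suspension ran from -0.87 to 0.0013 for Fdft1, -0.078 to 0.45 for Ebp, -0.82 to 0.070 for Elovl6, -0.71 to 0.034 for Abca1, and -0.46 to 0.30 for Soat1, which was 0.033 with the block in DESeq2. Over all 36 genes and 12 alternatives, 29 of 432 values of collagen against suspension changed sign, in 19 genes. Of these values, 0 belonged to the 6 genes called in the main fit without the block. Fdft1, called lower with the block, and Nr1h2, called higher with the block and offsets, were among the 19. DESeq2 with the block, single suspension groups, and leaving out the suspension library titled without CCL19, replicate 3, or the collagen library 2.6 mg/ml replicate 3 were chosen after seeing the data. Depth limits Elovl6, Idi1, and Hsd17b7 most, with as few as 5, 13, and 16 counts in a library.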
